A study of Homo sapiens with 12 samples.

Results

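The 49 genes described here are the human DNA replication genes outside the MCM helicase family: the factors that license and fire origins, the polymerases, the sliding clamp and its loader, the enzymes of nucleotide supply, and the regulators of entry into S phase. They were taken by name from the deposited gene table, which lists 58302 genes, and all 49 were found in it and passed the filter on low counts. Polyadenylated RNA of U251 and U87, both human glioma lines, was sequenced in 4 groups of 3 libraries. The groups are U251 cells given 180 µM artesunate for 24 h, U251 control cells, U87 cells given 24.08 µM artesunate for 24 h, and U87 control cells. Artesunate is a derivative of artemisinin, the plant compound used against malaria, and the text on RNA extraction names artemisinin in its place. All libraries carry the label day 9, the control label names culture medium at 10% and no solvent, and no genetic change is given for either line. Each line received its own dose, and in a comparison of the 2 lines the effects of line and dose cannot be told apart.

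Replication starts with licensing in G1, when the origin recognition complex (ORC) with CDC6 and CDT1 loads the MCM helicase onto origins, while geminin (GMNN) blocks CDT1 outside G1. In S phase the kinase CDC7 with its partner DBF4 and the cyclin E kinases start the loaded helicases by bringing in CDC45 and the GINS complex. Primase with polymerase alpha then begins each strand, polymerases delta and epsilon extend it while held by the clamp PCNA, and most of these genes are targets of the E2F transcription factors.

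Letters of E2F-like sites were looked for in the 250 bases before each start site, since E2F factors are the known common regulators of these genes. The letters were TTTCCCGC, TTTGGCGC, TTTCGCGC and TTTGCCGC on either strand, in RefSeq promoter windows of GRCh38.p14, and 43 of the 49 genes had a window. They stood in 16 of these 43 genes (37.2%), against 5.49% of the tested genes with a window and 3.4% of all RefSeq genes with one. The windows of the 49 genes were also richer in GC (median 67.2%) than those of the tested genes (64.0%) and of all RefSeq genes (58.0%). The letters TTTGAA, a core of the CHR element of G2 and M phase genes, stood in 3.51% of the members' windows, against 9.43% of the windows of tested genes. The last 150 bases before the start are shown 5′ to 3′ on the gene's own strand, with matches in capitals. They are given for the 3 genes with such letters and the smallest p in U87 (CDT1, GINS2 and E2F1). RFC1 and E2F7, which have none, were picked for contrast because they were called higher and not called in U87. The choice thus fixed this contrast in advance. Genes without the letters fell as well: FEN1 (-2.24) and ORC1 (-2.14) had a smaller p in U87 than the 3 genes shown. The windows are chr16:88803639-88803788 (plus strand) for CDT1, chr16:85688955-85689104 (minus) for GINS2, chr20:33686386-33686535 (minus) for E2F1, chr4:39366363-39366512 (minus) for RFC1 and chr12:77065570-77065719 (minus) for E2F7.
CDT1: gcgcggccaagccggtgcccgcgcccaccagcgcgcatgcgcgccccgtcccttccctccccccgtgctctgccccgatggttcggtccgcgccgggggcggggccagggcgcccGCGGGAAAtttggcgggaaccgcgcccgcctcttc
GINS2: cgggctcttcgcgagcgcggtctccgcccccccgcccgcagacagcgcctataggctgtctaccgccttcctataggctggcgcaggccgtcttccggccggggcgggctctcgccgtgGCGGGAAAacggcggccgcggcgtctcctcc
E2F1: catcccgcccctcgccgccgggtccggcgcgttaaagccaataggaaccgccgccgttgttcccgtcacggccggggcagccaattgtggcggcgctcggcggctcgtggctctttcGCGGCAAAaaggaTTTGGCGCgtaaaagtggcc
RFC1: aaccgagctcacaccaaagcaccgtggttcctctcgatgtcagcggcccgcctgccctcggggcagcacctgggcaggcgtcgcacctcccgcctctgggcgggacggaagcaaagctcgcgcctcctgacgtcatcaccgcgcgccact
E2F7: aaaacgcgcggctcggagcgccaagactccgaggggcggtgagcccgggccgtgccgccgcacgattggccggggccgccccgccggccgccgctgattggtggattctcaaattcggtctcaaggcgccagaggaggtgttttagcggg
CDT1 and GINS2 carry TTTCCCGC on the opposite strand, at positions -35 and -31 from the start, and E2F1 carries 2 matches, TTTGCCGC on the opposite strand at -33 and TTTGGCGC on its own strand at -20. A match is a run of letters and no evidence of binding. In U87 the 16 genes with the letters had a median log2 fold change of -1.47 with artesunate and 15 of them fell. The 27 without had a median of -1.0 and 22 fell, against 29.2% of all tested genes. In U251 the medians with and without the letters were -0.45 and -0.37, and 7 and 11 fell, against 4.26% of all tested genes. In a fit with an offset for transcript GC content and length, the medians were -1.15 and -1.09 in U87 and -0.46 and -0.36 in U251.

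Library totals ran from 13631985 to 17314284 counts, and 17150 genes were tested. Libraries of a group correlated across genes at Pearson's r of 0.985 to 0.987, and those of U87 artesunate at 0.972 to 0.981. In the last group the mitochondrial share of counts was 1.80%, 3.42% and 1.95% in replicates 1 to 3, against 3.74% to 4.18% in U87 controls, so replicate 2 stood apart from the other 2. Of 13 glioma and astrocyte markers, 10 reached at least 1 CPM (counts scaled to the library size) in every U251 library, 9 in every U87 artesunate library and 8 in every U87 control library, but AQP4 was at 0 in all groups and SOX2 at 0 in both U87 groups. Markers of other cell types were read as CPM summed over each list. The 4 oligodendrocyte markers stayed below 1 CPM in every library, with MAG and MOG at 0 throughout. The 4 microglia and leukocyte markers summed to 3.77 to 6.60 CPM in U251 artesunate, against 1.06 to 3.16 CPM in U251 controls, and to 31.0 to 60.5 CPM in U87 artesunate, against 73.2 to 115 CPM in U87 controls, with AIF1 at 0 throughout and CD68 and CSF1R making up most of the U87 sums. The 4 endothelial markers, mostly KDR, summed to 59.3 to 67.9 CPM in U251 artesunate, against 94.5 to 99.9 CPM in U251 controls, and to 19.8 to 29.1 CPM in U87 artesunate, against 37.7 to 42.4 CPM in U87 controls. The 4 epithelial markers summed to 19.8 to 26.7 CPM in U251 artesunate, against 22.9 to 37.2 CPM in U251 controls, and to 2.41 to 5.33 CPM in U87 artesunate, against 6.005 to 7.07 CPM in U87 controls. The sums of the 5 neuronal markers overlapped between treatments in both lines. They were 259 to 372 CPM in U251 artesunate, against 185 to 457 CPM in U251 controls. In U87 they were 62.8 to 87.8 CPM with artesunate, against 78.1 to 97.3 CPM in controls. Single markers moved in opposite directions in U87. MAP2 was at 30.5 to 42.1 CPM with artesunate, against 10.4 to 19.4 CPM in controls. TUBB3 (16.4 to 32.4, against 45.2 to 56.8 CPM) and SNAP25 (12.1 to 13.2, against 20.7 to 25.7 CPM) were lower. So was SYP, which stayed near 0. The part of these lists in the results was not tested.

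In U251 cells given artesunate, replication transcripts were moderately lower. Of the 49 genes 23 fell and none rose, with a median log2 fold change of -0.45, at an adjusted p under 0.05 in edgeR's quasi-likelihood test over all 17150 genes. The log2 fold changes ran from -0.75 (POLE2) to 0.07 (E2F7). Over all tested genes 4.26% fell and 4.09% rose, with a median near 0. None of the 49 fell by 2-fold or more, which 0.408% of all tested genes did. In 38 of the 49 every artesunate library lay below every control library, against 18.4% of all tested genes. In bulk RNA, fewer cells that carry a transcript and less of it in each cell cannot be told apart. The count was smaller when a U251 library was left out. Without U251 artesunate replicate 1 it was 13, without replicate 3 it was 15, without U251 control replicate 1 it was 14 and without control replicate 2 it was 12. Over all tested genes the 1431 calls fell to 652, 1047, 774 and 671 in these fits, in the same order. The member median was -0.44, -0.41, -0.43 and -0.43 in them. Of the 23, 9 passed the test in every alternative fit: CDC6, E2F8, GINS4, ORC1, PCNA, POLD3, PRIM2, RFC3 and RFC4.

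In U87 cells given artesunate 42 of the 49 genes fell and 1, RFC1, rose, with a median log2 fold change of -1.04 and a range from -3.39 (CDT1) to 0.80 (E2F7). Over all tested genes 29.2% fell and 29.2% rose, with a median of 0, and 17.0% fell by 2-fold or more, as 26 of the 49 did. In 43 of the 49 every artesunate library lay below every control library, against 31.2% of all tested genes. These genes took 0.175%, 0.165% and 0.169% of the counts of the U87 artesunate libraries, against 0.379% to 0.409% in U87 controls. In U251 the shares were 0.289% to 0.338% with artesunate, against 0.374% to 0.407% in controls. Of all tested genes 58.3% were called in either direction in U87. Of the 43 members called there, 41 passed in every alternative fit, the exceptions being RFC1 and RRM2.

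**Figure D1:**
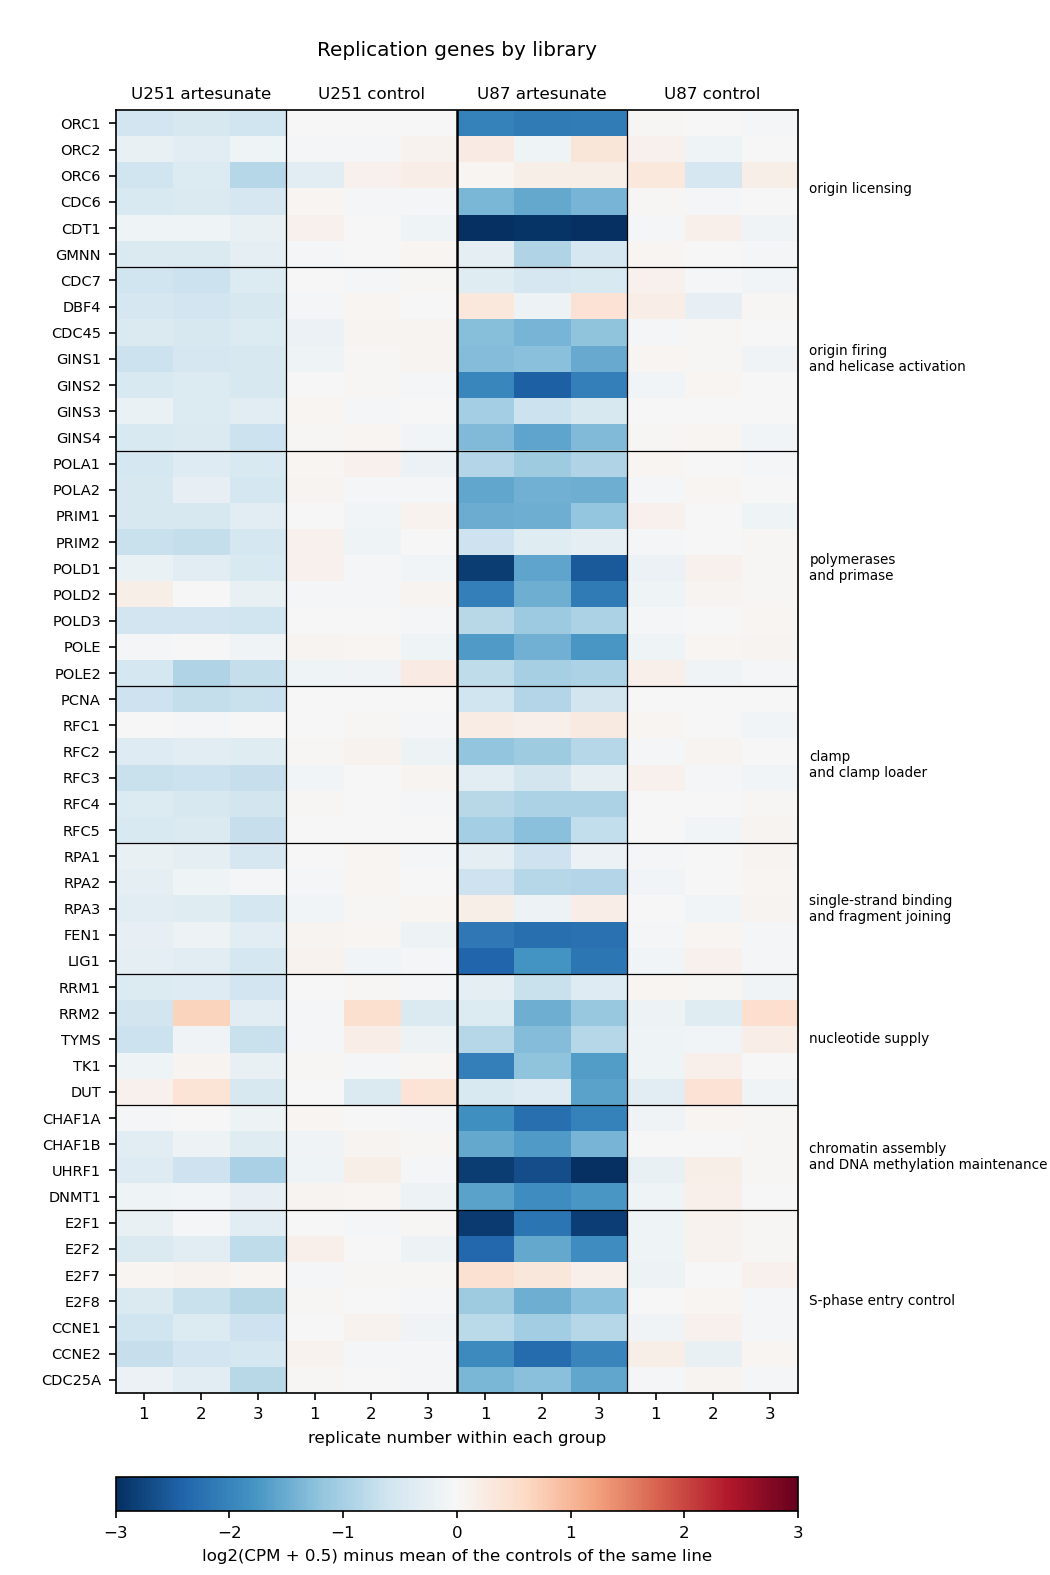
Heat map of the 49 replication genes (rows, by role) in the 12 libraries (columns, 3 per group). Colour gives log2(CPM + 0.5) minus the mean of the controls of the same line, with blue for lower, and is capped at 3 in either direction. The U87 artesunate columns are blue in most rows, and the U251 artesunate columns are paler.

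Between the lines, 22 genes fell in both: CCNE1, CCNE2, CDC45, CDC6, CDC7, E2F8, GINS1, GINS2, GINS4, ORC1, PCNA, POLA1, POLA2, POLD3, POLE2, PRIM2, RFC2 to RFC5, RRM1 and UHRF1. RPA3 was called in U251 alone, 20 were called lower in U87 alone, and DBF4, DUT, E2F7, ORC2 and ORC6 were called in neither. The difference of the 2 effects (U251 minus U87) was itself tested: it was called for 32 of the 49, with 30 positive (a deeper fall in U87, or a fall there alone) and 2 negative (DBF4 and RPA3). Over all tested genes the difference was called for 49.4%, with 24.1% positive and 25.3% negative. Its median over the 49 genes was 0.79 on the log2 scale, against -0.05 over all tested genes. Among the 20 genes called lower in U87 alone, the difference was not called for GINS3, GMNN, RPA1, RRM2 and TYMS. RPA1 was at -0.34 in U251 and at -0.35 in U87. Of the 22 genes that fell in both lines, the difference was called for 15 and not for 7. In a fit with an offset for transcript GC content and length, 5 of these 7 passed as well (CDC7, PCNA, POLE2, RFC3 and RRM1), and the sign of the difference turned for CDC7, RRM1, RFC3 (0.51, against -0.30 without the offset), PRIM2 (0.39, against -0.24) and CCNE1 (-0.01, against 0.38). The count of 2 negative calls was 1 without U251 artesunate replicate 3 or without U87 artesunate replicate 3, and 5 without U87 artesunate replicate 2 or without U87 control replicate 1.

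**Figure D2:**
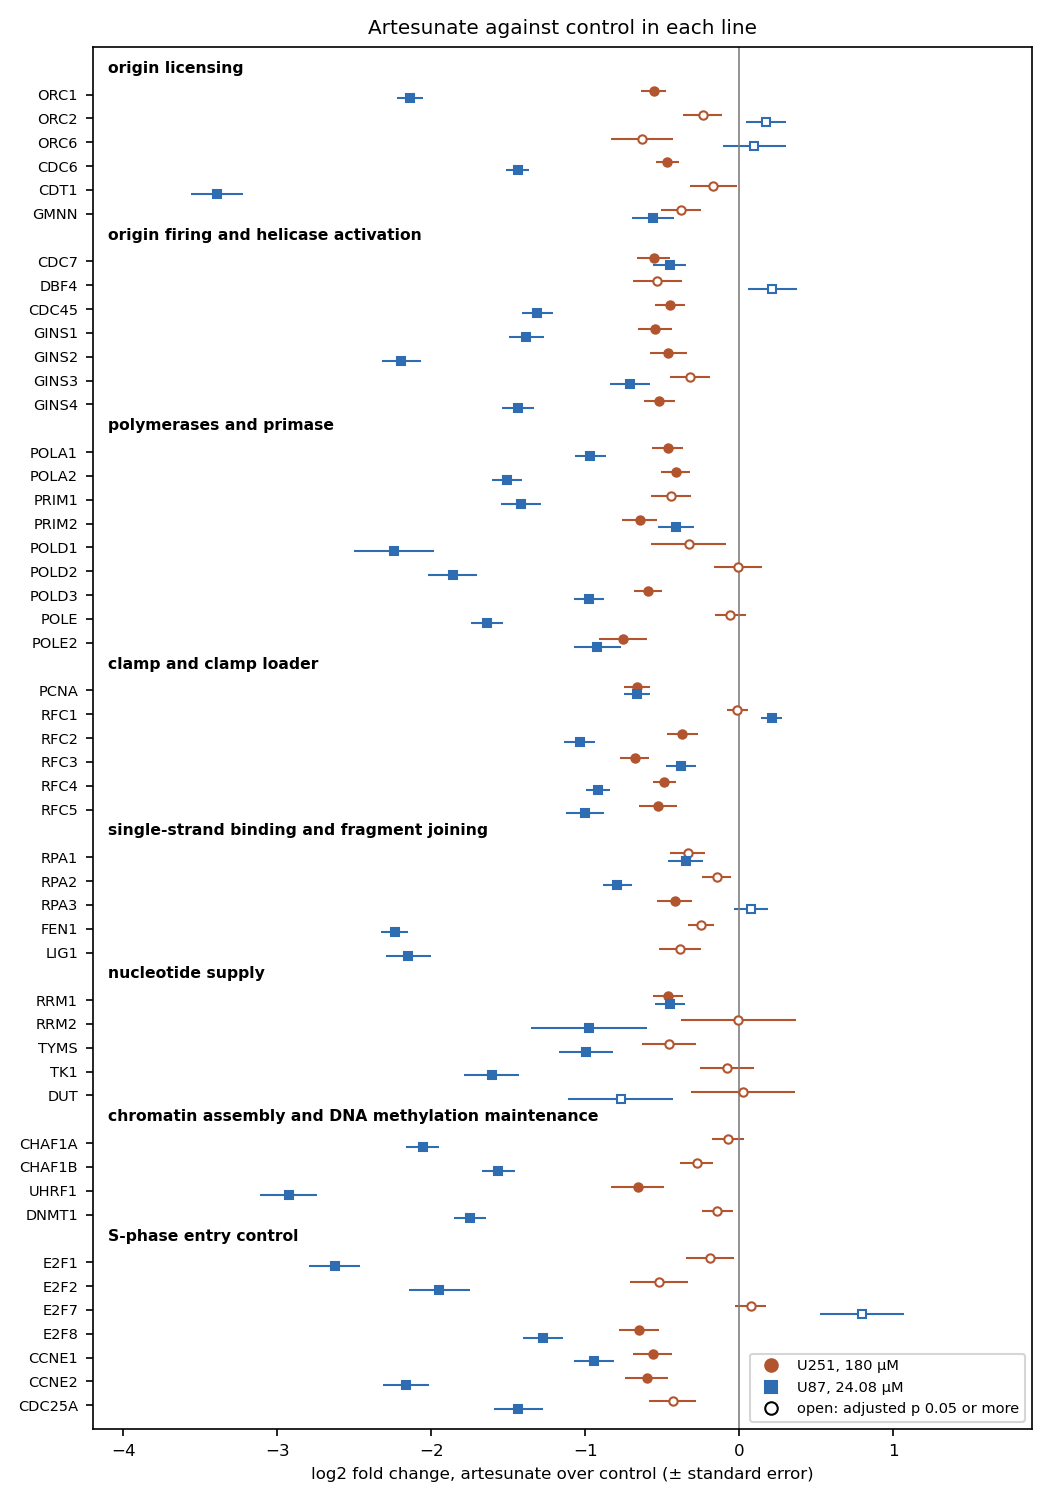
Log2 fold change of artesunate over control with its standard error for each gene, by role, in U251 (circles) and U87 (squares). Filled points have an adjusted p under 0.05. Most squares lie left of their circle, from CDT1 at -3.39, while PCNA, RRM1 and RPA1 have both points at nearly the same place.

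The effect moved with the GC content of the transcripts. Across the 49 genes Spearman's rho of the log2 fold change with GC content was -0.70 in U87 and 0.38 in U251, and across the 17089 tested genes with a GC value it was -0.63 and 0.41 in the same lines. Genes are not independent replicates, and all points of a line share its 6 libraries. The 18 members below 45% GC had a median of -0.64 in U87, against 0.58 for all tested genes of that range. The 21 members between 45% and 55% had a median of -1.27 in U87, against -0.0032 for all, and the 10 members at 55% or more had -2.0, against -1.0. With an offset for GC content and transcript length, fitted to each library over all genes, these member medians were -1.08, -1.13 and -1.19, and 46 of the 49 fell in U87 and none rose. Over all tested genes 21.3% fell and 23.8% rose in U87 in that fit. In U251 the member medians of the 3 ranges were -0.50, -0.46 and -0.16, and -0.37, -0.45 and -0.40 with the offset, where 30 of the 49 fell. Over all tested genes 4.34% fell and 4.19% rose in U251 with the offset. The part of GC content in the results without the offset was not tested. Values with the offset are given for those of the 49 genes whose call it changed or whose fall or rise it moved by over 1.5 times.

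**Figure D3:**
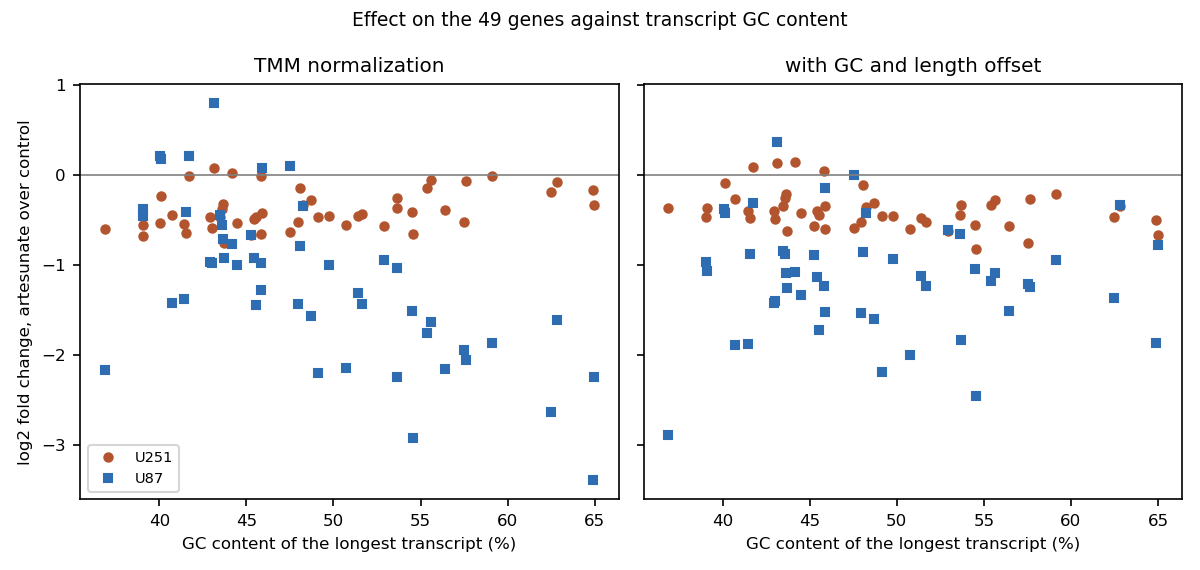
Log2 fold change of the 49 genes (vertical axis) against the GC content of the longest transcript in percent (horizontal axis), without (left) and with (right) the offset for GC and length. Without it the U87 points (squares) run downward with GC content (rho -0.70) and the U251 points (circles) upward (rho 0.38), and with it the U87 medians of the 3 GC ranges are -1.08, -1.13 and -1.19.

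Among the 6 licensing genes 4 fell in U87 (median -1.0) and 2 in U251 (median -0.42). ORC1, the largest subunit of the origin recognition complex, had the smallest p of this group in both lines. Its level was 25.2, 26.6 and 24.8 CPM in U251 artesunate, against 38.1, 37.4 and 37.2 CPM in U251 controls. In U87 it was 8.97, 8.33 and 8.52 CPM with artesunate, against 39.2, 37.8 and 36.9 CPM in controls. The groups did not overlap in either line, and the log2 fold change was -0.56 ± 0.08 (± standard error; adjusted p = 0.0020) in U251 and -2.14 ± 0.09 (adjusted p = 1.6e-08) in U87. CDC6, which works with ORC to load the helicase, fell by 0.47 on the log2 scale in U251 and by 1.44 in U87. CDT1, the loading factor that geminin blocks (chromosome 16, 88803213 to 88809258 on GRCh38 in the deposited table), had 31.0, 31.1 and 28.97 CPM in U251 artesunate, against 37.5, 33.7 and 31.2 CPM in U251 controls. It had 5.396, 9.06 and 6.41 CPM in U87 artesunate, against 70.4, 80.3 and 68.0 CPM in U87 controls. In U251 the groups lay close together and the gene was not called (-0.17 ± 0.15), and in U87 they were far apart (-3.39 ± 0.17, the lowest value of the 49). With the GC and length offset CDT1 was at -1.87 in U87 and at -0.50 in U251, where it was then called (adjusted p = 0.0037).

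Geminin fell in U87 (-0.56 ± 0.13, or -0.87 with the offset) and was not called in U251 (-0.38 ± 0.13). The other 2 licensing genes were called in neither line. ORC2, a core subunit of the complex, was at -0.24 in U251 and at 0.17 in U87, where the offset gave -0.43 (adjusted p = 0.0017). ORC6, the smallest subunit, had 63.7, 71.8 and 52.8 CPM in U251 artesunate, against 76.2, 106 and 110 CPM in U251 controls. In U87 it had 25.1, 27.1 and 27.2 CPM with artesunate, against 30.3, 16.9 and 27.0 CPM in controls. The U251 groups did not overlap and the gene was not called (-0.63 ± 0.20, adjusted p = 0.077), and in U87 the groups overlapped (0.10 ± 0.21).

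Among the 7 genes that fire origins and activate the helicase 6 fell in U87 (median -1.31) and 5 in U251 (median -0.52). CDC7, the kinase that fires licensed origins, had 16.2, 15.8 and 18.8 CPM in U251 artesunate, against 24.7, 24.4 and 25.7 CPM in U251 controls. In U87 it had 14.3, 12.9 and 13.2 CPM with artesunate, against 20.03, 17.8 and 17.5 CPM in controls. It fell by like amounts, at -0.56 ± 0.11 in U251 (adjusted p = 0.0092) and -0.45 ± 0.11 in U87 (adjusted p = 0.0036), and the difference of the effects was -0.10 ± 0.15 and was not called. The offset moved CDC7 to -0.36 in U251 and -1.07 in U87, and the difference to 0.70 (adjusted p = 9.5e-04). Its activator DBF4 was called in neither line, at -0.53 ± 0.16 in U251 and 0.21 ± 0.16 in U87. Its difference of -0.75 ± 0.23 was called (adjusted p = 0.016), but with the offset the U87 value was -0.38, then called (adjusted p = 0.021), and the difference was 0.0049. DBF4 has a named pseudogene with 694 counts in all, against 3381 for the gene, and its counts are less certain than those of a gene with no such copy.

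CDC45, which the helicase takes up to become active, fell by 0.45 in U251 and by 1.31 in U87. Of the 4 GINS subunits, GINS1, GINS2 and GINS4 fell in both lines. GINS3 was called in U87 alone, but it was at -0.32 in U251 and its difference of 0.39 ± 0.18 was not called. GINS2, whose promoter is printed above, had 27.0, 27.8 and 26.4 CPM in U251 artesunate, against 37.8, 38.3 and 35.7 CPM in U251 controls. It had 11.0, 7.60 and 10.1 CPM in U87 artesunate, against 41.1, 46.0 and 44.6 CPM in U87 controls. Every artesunate library of a line lay below its controls, by -0.46 ± 0.12 in U251 (adjusted p = 0.038) and -2.19 ± 0.13 in U87 (adjusted p = 1.5e-07). The GINS2 call in U251 was lost in 7 of the fits that leave out 1 library: without any 1 of the 6 U251 libraries, and without U87 control replicate 3. In U87 GINS1, GINS3 and GINS4 were at -1.38, -0.71 and -1.44, and the offset moved GINS3 to -1.09. GINS1 was at -0.55 in U251, and at -0.40 with the offset, no longer called (adjusted p = 0.052).

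All 9 polymerase and primase genes fell in U87 (median -1.42), and 5 fell in U251 (median -0.45). POLA2, the second subunit of polymerase alpha, had 32.3, 37.8 and 31.2 CPM in U251 artesunate, against 47.9, 44.0 and 42.9 CPM in U251 controls. It had 20.1, 22.1 and 21.4 CPM in U87 artesunate, against 58.5, 63.0 and 59.6 CPM in U87 controls. Neither line's groups overlapped, and the log2 fold changes were -0.41 ± 0.09 (adjusted p = 0.022) and -1.51 ± 0.10 (adjusted p = 3.1e-07) in U251 and U87. The U251 call of POLA2 was lost without U251 artesunate replicate 1 or 3, or without U251 control replicate 1 or 2. The catalytic subunit POLA1 fell by 0.47 in U251 and by 0.97 in U87. Of the primase pair that makes the RNA primers, PRIM2 fell in both lines (-0.65 in U251, -0.41 in U87, and -0.88 in U87 with the offset), and PRIM1 in U87 alone (-1.42, against -0.45 ± 0.13 in U251, adjusted p = 0.056).

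Without the offset the values of the polymerase delta subunits lay far apart. POLD3, an accessory subunit, had 27.7, 27.4 and 27.2 CPM in U251 artesunate, against 41.7, 41.9 and 40.5 CPM in U251 controls. In U87 it had 15.4, 12.7 and 14.2 CPM with artesunate, against 26.4, 27.7 and 29.1 CPM in controls. It fell by 0.59 ± 0.09 (adjusted p = 0.0027) in U251 and by 0.98 ± 0.09 in U87 (adjusted p = 5.2e-06). The catalytic subunit POLD1 was not called in U251 (-0.33 ± 0.25) and fell by 2.24 ± 0.26 in U87, where replicate 2 (37.4 CPM) lay above replicates 1 and 3 (15.4 and 19.2 CPM). With the offset POLD1 was at -0.67 in U251, then called (adjusted p = 9.0e-04), and at -0.78 in U87, and the difference between the lines was 0.11 and no longer called. POLD2 was at -0.01 ± 0.16 in U251, with overlapping groups, and fell by 1.86 ± 0.16 in U87, or by 0.94 with the offset. POLE, the catalytic subunit of polymerase epsilon, was at -0.06 in U251 (-0.28 with the offset, then called, adjusted p = 0.017) and fell by 1.64 in U87 (1.09 with the offset), while its partner POLE2 fell by 0.75 in U251 and by 0.92 in U87. Transcripts of POLD1, POLD2 and POLE hold 65.0%, 59.1% and 55.6% GC, against 43.0% and 43.7% for POLD3 and POLE2.

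Of the 6 genes of the clamp and its loader 5 fell in each line, with medians of -0.79 in U87 and -0.51 in U251. PCNA, the clamp itself (chromosome 20, 5114953 to 5126626, minus strand), had the highest FPKM of the 49 genes in all 4 groups. Per length it stood at 60.3 ± 2.14 FPKM in U251 artesunate, against 98.0 ± 0.842 in U251 controls, and at 48.5 ± 4.62 FPKM in U87 artesunate, against 81.2 ± 1.32 in U87 controls (SD, n = 3 each). In counts it had 114, 107 and 111 CPM in U251 artesunate, against 177, 177 and 173 CPM in U251 controls. It had 94.1, 78.2 and 98.0 CPM in U87 artesunate, against 145, 142 and 142 CPM in U87 controls. The fall was nearly equal, at -0.66 ± 0.08 in U251 (adjusted p = 8.3e-04) and -0.67 ± 0.08 in U87 (adjusted p = 3.8e-05), with a difference of 0.0028 ± 0.12. With the offset PCNA was at -0.57 in U251 and -0.89 in U87, and the difference was 0.32 (adjusted p = 0.012).

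Of the loader, RFC2, RFC3, RFC4 and RFC5 fell in both lines, and RFC2 was at -1.04 in U87, or at -0.65 with the offset (adjusted p = 1.3e-04). RFC4 had 48.1, 45.9 and 43.9 CPM in U251 artesunate, against 66.0, 64.6 and 62.6 CPM in U251 controls. It had 20.5, 19.0 and 19.0 CPM in U87 artesunate, against 36.7, 36.3 and 37.7 CPM in U87 controls. The libraries of each group lay close together, and RFC4 fell by 0.49 ± 0.08 in U251 and by 0.92 ± 0.08 in U87. RFC3 fell by 0.68 in U251 and by 0.38 in U87, but by 0.46 and 0.97 with the offset. RFC1, the large subunit that contacts the clamp (chromosome 4, 39287456 to 39366375, minus strand), was the exception. It had 148, 146 and 149 CPM in U251 artesunate, against 149, 152 and 146 CPM in U251 controls. It had 123, 118 and 127 CPM in U87 artesunate, against 111, 107 and 99.2 CPM in U87 controls. The U251 groups overlapped (-0.01 ± 0.07), and in U87 all artesunate libraries lay above the controls (0.21 ± 0.07, adjusted p = 0.019). That rise was not called without U87 artesunate replicate 3 or U87 control replicate 3, and with the offset RFC1 was lower in U87 (-0.31, adjusted p = 0.0015). Without U87 artesunate replicate 2, 3 genes rose in U87: RFC1, DBF4 and ORC2.

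**Figure D4:**
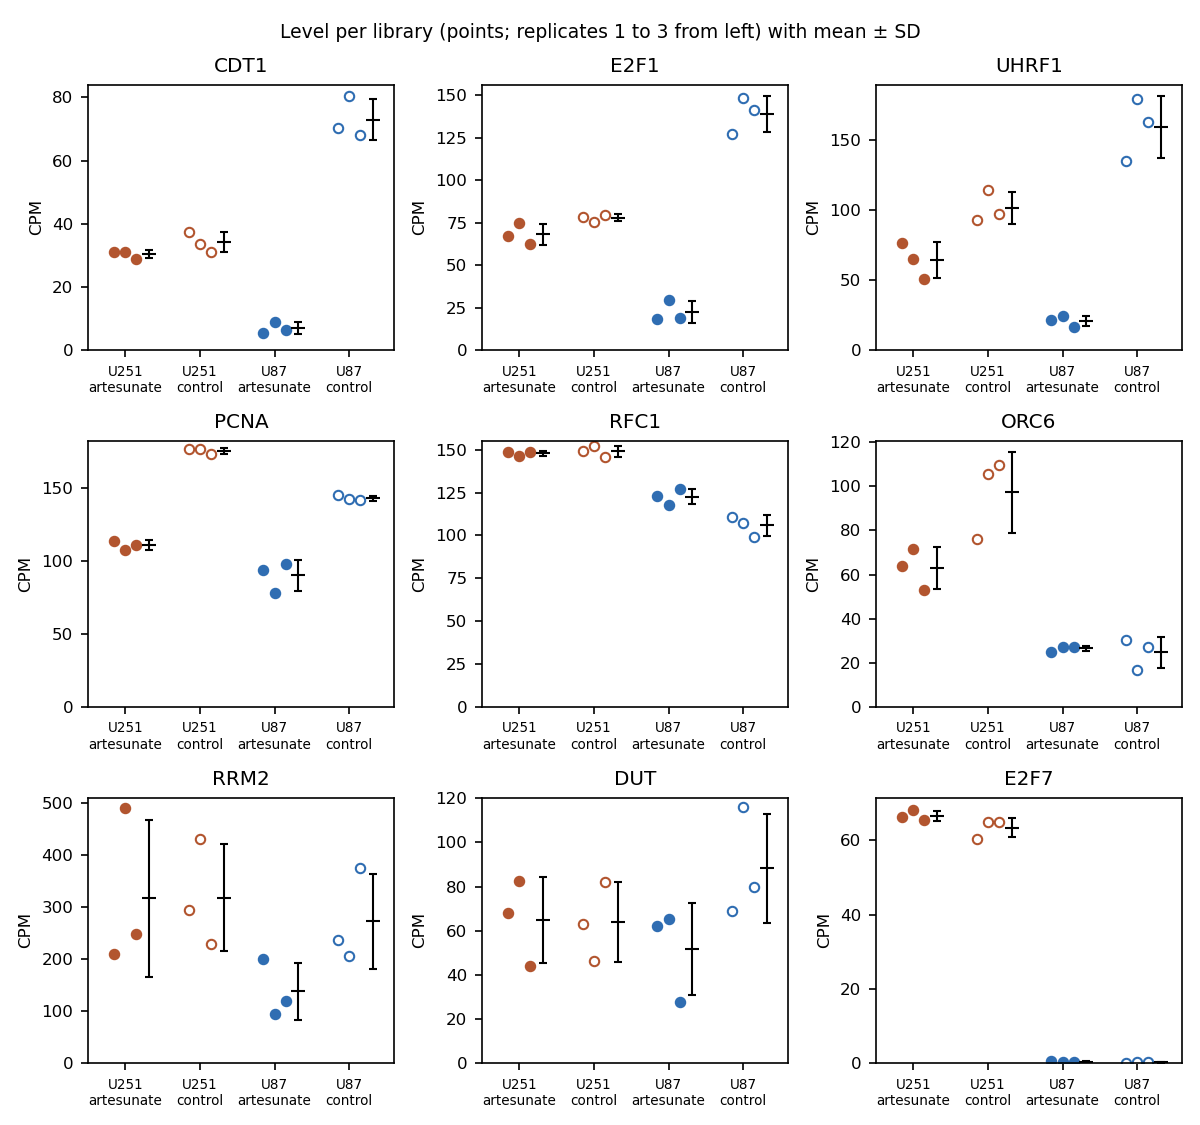
CPM of 9 genes in each library (points, replicates 1 to 3 from left) with mean ± SD (bars), in U251 artesunate, U251 control, U87 artesunate and U87 control. CDT1, E2F1 and UHRF1 are lowest in U87 artesunate, PCNA is lower with artesunate in both lines, RFC1 differs little, RRM2 and DUT scatter within groups, and E2F7 is near 0 in U87.

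Of the 5 genes of single-strand binding and fragment joining, 4 fell in U87 (median -0.79) and 1 in U251 (median -0.34). FEN1, the flap nuclease that trims Okazaki fragments, had 91.1, 97.2 and 87.2 CPM in U251 artesunate, against 115, 114 and 98.8 CPM in U251 controls. It had 37.3, 34.6 and 34.9 CPM in U87 artesunate, against 164, 175 and 165 CPM in U87 controls. The fall in U87 (-2.24 ± 0.09, adjusted p = 1.4e-08) had the smallest p of the 49, and U251 was not called (-0.25 ± 0.08, adjusted p = 0.089). With the offset FEN1 was at -0.33 in U251 and was called (adjusted p = 0.037). LIG1, the ligase that seals the fragments, likewise fell by 2.15 ± 0.15 in U87 and was at -0.38 ± 0.14 in U251, where the offset gave -0.57 and a call (adjusted p = 0.0012). Of the RPA subunits that coat single strands, RPA1 fell by 0.35 in U87 and was at -0.34 in U251, and RPA2 fell by 0.79 in U87 and was at -0.15 in U251. RPA3, the smallest subunit, had 26.9, 26.5 and 23.9 CPM in U251 artesunate, against 32.4, 35.4 and 35.8 CPM in U251 controls. It had 38.6, 30.6 and 39.2 CPM in U87 artesunate, against 34.3, 32.3 and 36.4 CPM in U87 controls. It was the 1 gene called in U251 alone (-0.42 ± 0.11, adjusted p = 0.041), with overlapping groups in U87 (0.07 ± 0.11) and a called difference (-0.49 ± 0.16, adjusted p = 0.021). The U251 call of RPA3 was lost without any 1 of the 6 U251 libraries or U87 control replicate 3, and its difference without replicate 3 of either artesunate group, or with the offset (-0.19).

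Of the 5 nucleotide supply genes 4 fell in U87 (median -0.98) and 1 in U251 (median -0.08). RRM1, the large subunit of ribonucleotide reductase, had 153, 155 and 138 CPM in U251 artesunate, against 203, 210 and 201 CPM in U251 controls. It had 213, 165 and 201 CPM in U87 artesunate, against 275, 269 and 246 CPM in U87 controls. The groups did not overlap, and the falls of 0.46 ± 0.10 (adjusted p = 0.015) in U251 and 0.45 ± 0.10 (adjusted p = 0.0019) in U87 were nearly equal, with a difference of -0.01 ± 0.14 (0.50 with the offset, adjusted p = 0.0043). The U251 call of RRM1 was lost without artesunate replicate 3 or control replicate 2, and the offset moved its U87 value to -0.85. TK1, thymidine kinase of the salvage route, had 167, 194 and 158 CPM in U251 artesunate, against 186, 176 and 186 CPM in U251 controls. It had 49.3, 90.1 and 65.0 CPM in U87 artesunate, against 188, 229 and 206 CPM in U87 controls. TK1 was not called in U251 (-0.08 ± 0.17) and fell by 1.61 ± 0.18 in U87 (adjusted p = 1.4e-05). With the offset it was at -0.34 in U251 and -0.33 in U87, both called, and the difference was -0.01 in place of 1.53.

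The other 3 genes of this group scattered within groups. RRM2, the small subunit whose level peaks in S phase, had 211, 491 and 249 CPM in U251 artesunate, against 295, 431 and 229 CPM in U251 controls. It had 200, 95.4 and 120 CPM in U87 artesunate, against 236, 206 and 376 CPM in U87 controls. The U251 groups overlapped (-0.01 ± 0.37), and the U87 fall of 0.98 ± 0.38 (adjusted p = 0.042) was not called without U87 artesunate replicate 2 or 3, or without U87 control replicate 1 or 3. DUT, which removes dUTP, had 67.9, 82.5 and 44.2 CPM in U251 artesunate, against 63.1, 46.1 and 82.2 CPM in U251 controls. It had 62.1, 65.2 and 27.8 CPM in U87 artesunate, against 68.8, 116 and 79.9 CPM in U87 controls. DUT was called in neither line (0.02 ± 0.34 in U251; -0.77 ± 0.34 in U87, adjusted p = 0.071), although the U87 groups did not overlap, and with the offset it was called in U87 (-1.08, adjusted p = 0.030). TYMS, thymidylate synthase, fell by 0.996 ± 0.18 in U87 and was at -0.46 ± 0.18 in U251. DUT has 8 named pseudogenes in the table, with 60 counts in all against 12602 for the gene, and RRM2 has 3, with 46 counts against 49522.

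The 4 genes of chromatin assembly and methylation upkeep had the lowest median of all groups in U87 (-1.90), where all 4 fell, and 1 fell in U251 (median -0.21). UHRF1, which brings DNMT1 to newly made DNA, had 76.8, 65.4 and 51.1 CPM in U251 artesunate, against 93.3, 115 and 97.1 CPM in U251 controls. It had 21.4, 24.5 and 17.0 CPM in U87 artesunate, against 135, 179 and 163 CPM in U87 controls. The groups were apart in both lines (-0.66 ± 0.17, adjusted p = 0.038, in U251 and -2.93 ± 0.19, adjusted p = 2.7e-07, in U87). The U251 call of UHRF1 was lost without U251 artesunate replicate 2 or 3, without any of the 3 U251 controls, and without U87 control replicate 3. CHAF1A, the large subunit of the histone chaperone CAF-1, had 70.7, 74.9 and 66.5 CPM in U251 artesunate, against 77.7, 73.1 and 72.0 CPM in U251 controls. It had 26.6, 19.9 and 23.5 CPM in U87 artesunate, against 90.3, 102 and 99.3 CPM in U87 controls. U251 overlapped (-0.07 ± 0.10), and U87 was far apart (-2.06 ± 0.11, adjusted p = 8.1e-08, or -1.25 with the offset). Its partner CHAF1B and the maintenance methyltransferase DNMT1 fell by 1.56 and 1.75 in U87, where the offset gave -1.18 for DNMT1 in place of -1.75, and were at -0.28 and -0.14 in U251. The difference between the lines was called for all 4 genes, from 1.29 (CHAF1B) to 2.27 (UHRF1), and with the offset from 0.85 (DNMT1) to 1.64 (UHRF1), still called for each.

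Of the 7 regulators of S-phase entry 6 fell in U87 (median -1.44) and 3 in U251 (median -0.52). E2F1, the activator of replication genes, had 67.2, 74.7 and 62.8 CPM in U251 artesunate, against 78.5, 75.6 and 79.5 CPM in U251 controls. It had 18.7, 29.7 and 19.0 CPM in U87 artesunate, against 127, 148 and 141 CPM in U87 controls. E2F1 was not called in U251 (-0.19 ± 0.15) and fell by 2.63 ± 0.16 in U87 (adjusted p = 2.5e-07). With the offset it was at -0.46 in U251 (adjusted p = 9.4e-04) and at -1.36 in U87. E2F2, a second activator, fell by 1.95 in U87 (1.21 with the offset) and was at -0.52 ± 0.19 in U251 (-0.75 with the offset, then called). E2F8, a repressor of E2F targets, had 20.6, 17.2 and 15.5 CPM in U251 artesunate, against 28.5, 27.8 and 27.4 CPM in U251 controls. It had 18.5, 13.7 and 16.2 CPM in U87 artesunate, against 38.9, 40.7 and 37.7 CPM in U87 controls. It fell in both lines, by 0.65 ± 0.13 in U251 (adjusted p = 0.011) and 1.27 ± 0.13 in U87 (adjusted p = 7.9e-06). Cyclin E1 (CCNE1) fell by 0.56 in U251 and by 0.94 in U87 (0.61 with the offset), and cyclin E2 (CCNE2) was at -0.60 in U251 and -2.16 in U87, both called. With the offset CCNE2 was at -0.37 in U251, no longer called, and at -2.88 in U87. CDC25A, the phosphatase that activates the cyclin E kinase, fell by 1.44 in U87 and was at -0.43 ± 0.15 in U251 (-0.52 with the offset, then called, adjusted p = 0.037).

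E2F7, the partner repressor of E2F8, parted the lines instead of the treatments. It had 66.3, 68.1 and 65.4 CPM in U251 artesunate, against 60.4, 64.8 and 64.8 CPM in U251 controls, and was not called (0.07 ± 0.10). The U87 libraries held 5 to 7 counts each with artesunate and 3 to 5 each in controls, 18 against 12 in sum, which is too few for a direction (adjusted p = 0.18). Summed over the 3 controls of each line, E2F7 had 3012 counts in U251 and 12 in U87, a ratio of 262 after scaling (95% exact interval 150 to 508, counting error only).

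Besides E2F7, single genes differed between the controls of the 2 lines, by up to 3.93-fold (ORC6). U251 controls were higher than U87 controls in 11 of the 49, with E2F7 among them, and lower in 14. Over all tested genes 32.5% were higher and 32.3% lower. The median log2 ratio of the 49 was -0.08. ORC6 was 1.97 ± 0.21 higher in U251 on the log2 scale, geminin 1.21 ± 0.13, the single-strand binding subunit RPA1 1.05 ± 0.11 and RFC4 0.80 ± 0.08. CDT1 was lower in U251 (-1.09 ± 0.15), as were PRIM1 (-0.88 ± 0.13), E2F1 (-0.84 ± 0.15), POLE2 (-0.75 ± 0.15), UHRF1 (-0.65 ± 0.17) and FEN1 (-0.62 ± 0.08). The offset brought CDT1 to -0.68, E2F1 to -0.42 and FEN1 to -0.39, each still called. With it 14 of the 49 were higher in U251 and 15 lower, against 32.3% and 33.8% over all tested genes. CDC7 (0.12, against 0.44 without it), CHAF1A (-0.09, against -0.39) and ORC2 (0.15, against 0.49) were no longer called. Newly called were POLD2 (0.44), LIG1 (0.37), CDC25A (0.36), RFC2 (0.28), TK1 (0.24), RFC5 (-0.32) and POLA1 (-0.47). Per length, the genes that followed PCNA were TYMS, TK1 and E2F1 in U251 controls (56.4, 48.0 and 31.4 FPKM) and E2F1, TK1 and FEN1 in U87 controls (56.9, 55.5 and 44.9 FPKM). DBF4 was lowest among the 49 in U251 controls (2.32 ± 0.10 FPKM) and E2F7 in U87 controls (0.0219 ± 0.00659 FPKM).

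**Figure D5:**
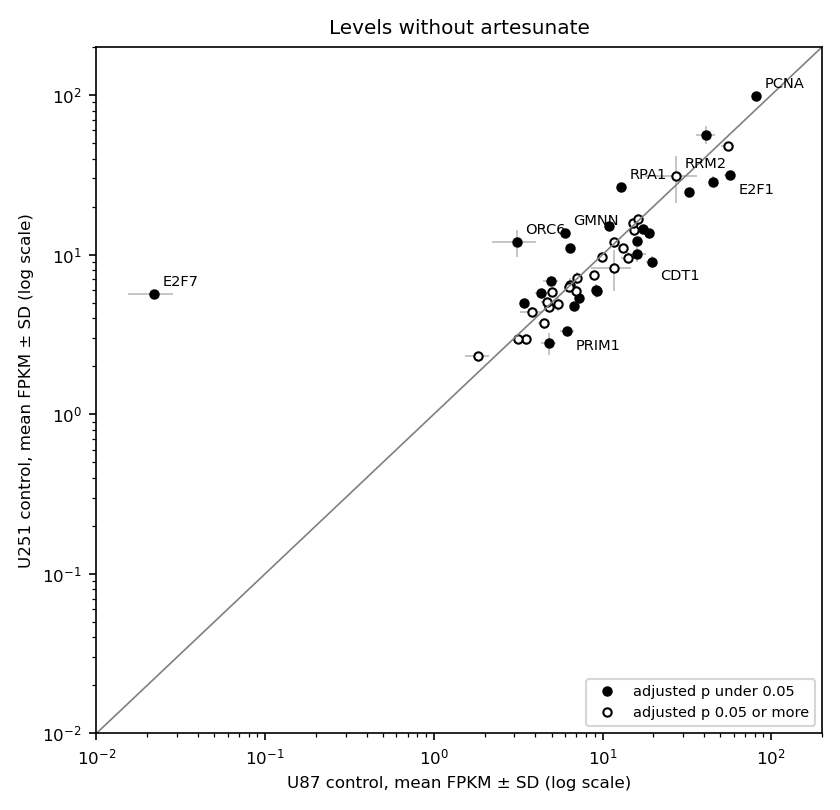
Mean FPKM ± SD (n = 3) of the 49 genes in U251 controls (vertical, log scale) against U87 controls (horizontal, log scale). Filled points have an adjusted p under 0.05, and the line marks equal levels. E2F7 stands far above the line and ORC6, GMNN and RPA1 above it, and CDT1, PRIM1 and E2F1 lie below it.

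Other genes of the pathway were read from 4 lists with 56 members, all tested. In U251 18 of the 56 fell and 1 rose (median -0.31), against 4.26% lower and 4.09% higher over all tested genes. In U87 30 fell and 12 rose (median -0.54), against 29.2% lower and 29.2% higher over all tested genes. With the offset 20 fell and 1 rose in U251, against 4.34% lower and 4.19% higher over all tested genes. In U87 36 fell and 7 rose with the offset, against 21.3% lower and 23.8% higher over all tested genes. Among 24 further origin and replisome factors 11 fell and 1 rose in U251, and 16 fell and 2 rose in U87. The riser in U251 was CHTF8, a subunit of an alternative clamp loader (0.82 ± 0.21, adjusted p = 0.034). The smallest p values were ranked over all 56 genes in each line. In U251 cyclin A2 (CCNA2, -0.66 ± 0.09), the clamp loader subunit DSCC1 (-0.79 ± 0.12) and the nuclease DNA2 (-0.66 ± 0.10) had the smallest p among those that fell. In U87 the smallest p among those that fell belonged to RNASEH2A, a subunit of the nuclease that removes RNA from DNA (-1.69 ± 0.11), the histone chaperone ASF1B (-1.63 ± 0.12, or -0.76 with the offset) and the fork protein CLSPN (-1.63 ± 0.13). RRM2B, the p53-regulated form of the ribonucleotide reductase small subunit, rose by 1.57 ± 0.12 in U87 (0.79 with the offset), ORC4 by 0.88 ± 0.07 (0.11 with the offset, not called) and the pocket protein RBL2 by 0.95 ± 0.08 (0.51 with the offset). Of the 17 genes of the Rb and E2F circuit, 8 rose and 5 fell in U87 (median 0.43), and 3 fell and none rose in U251 (median -0.27). With the offset the U87 median of these 17 was -0.15, and 6 fell and 3 rose (RBL2, E2F3 and TFDP2). RB1, the pocket protein that holds E2F factors in check, was at 0.45 in U87 (adjusted p = 0.0099) and at -0.28 with the offset (adjusted p = 0.0093).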

How the data were processed

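The authors deposited 1 table with whole-number counts per gene and library, not normalized per the file headers, and the authors' FPKM, which follow TMM scaling per the design text. The study's design text and the submitters' processing notes name fastp, HISAT2 2.1.0, StringTie 1.3.3b and edgeR 3.30.3 on GRCh38. The step that made whole counts and the strandedness of counting are not given in the sources used here, so reads of overlapping genes, which 18 of the 49 genes have among tested genes, cannot be told apart from theirs.

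Tests of the counts used edgeR 4.0.16 in R 4.3.3 (filterByExpr with a minimum count of 10 and a total of 15, TMM, quasi-likelihood test, 1 mean per group over 12 libraries, no replicate block). This kept 17150 of 35237 genes with a count (common biological coefficient of variation 0.183). Calls needed an adjusted p under 0.05 (Benjamini-Hochberg over all tested genes), and a standard error is the size of the log2 fold change divided by the root of F. CPM are counts scaled to the TMM-adjusted library size. The script was tested on simulated data. The labels do not say whether replicates are separate cultures, so a p value covers only the spread of these samples, possibly a technical one, and no sequencing batch is given. The members, lists and rules were chosen with earlier results of these data known: every member may be named, with library values for PCNA, for the smallest p of each role in each line and for calls against the trend, and for other genes the 3 smallest p per direction and line. Library values of CDT1, ORC6, RRM2, DUT and E2F7 were added after their values were seen.

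Alternatives were DESeq2 1.42.0, total counts, no filter, a replicate block, an offset for GC content and length of the longest GENCODE 29 transcript (loess, span 0.3; a value for all 49 genes and 99.6% of tested genes), limma 3.58.1 on log2(FPKM + 1) and log2(FPKM + 0.1), only the 6 libraries compared, and each library left out. Promoter windows are from RefSeq.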

Additional observations from a re-analysis of the deposited data

Results flagged for a closer look

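The results below stand out because the artesunate effect differed between U251 and U87 in a direct test (edgeR interaction, adjusted p under 0.05 over all tested genes, of which 49.4% passed). Values are log2 differences, U251 effect minus U87 effect, so a positive value is a deeper fall in U87, and line and dose cannot be told apart.

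In origin licensing the difference was 3.22 for CDT1, 1.58 for ORC1 and 0.97 for CDC6. In origin firing it was 1.73 for GINS2, 0.92 for GINS4, 0.86 for CDC45 and 0.83 for GINS1, against -0.75 for DBF4, which was called in neither line alone. Among the polymerases it was 1.91 for POLD1, 1.86 for POLD2, 1.58 for POLE, 1.10 for POLA2, 0.97 for PRIM1, 0.50 for POLA1 and 0.38 for POLD3. In the clamp loader it was 0.67 for RFC2, 0.48 for RFC5 and 0.43 for RFC4. In strand binding and joining it was 1.99 for FEN1, 1.77 for LIG1 and 0.64 for RPA2, against -0.49 for RPA3. In nucleotide supply it was 1.53 for TK1. In chromatin assembly it was 2.27 for UHRF1, 1.98 for CHAF1A, 1.61 for DNMT1 and 1.29 for CHAF1B. Among regulators of S-phase entry it was 2.44 for E2F1, 1.56 for CCNE2, 1.42 for E2F2, 1.00 for CDC25A and 0.62 for E2F8.

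Of these 32 differences 24 passed in every alternative fit. With the offset for GC content and length those of TK1, POLD1, RFC2, E2F2, DBF4 and RPA3 did not pass (adjusted p = 0.99, 0.59, 0.25, 0.082, 1.0 and 0.27 in that order). POLD3 missed the threshold in the fit with the replicate block and without U251 artesunate replicate 1 or U251 control replicate 2 or 3. RPA3 missed it without replicate 3 of either artesunate group, and RFC5 in 8 of the 12 fits that leave out 1 library (adjusted p up to 0.083).

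The offset for GC content and length moved many of these differences by over 1.5 times. With it the difference was smaller for CDT1 (1.37), POLD2 (0.73), POLE (0.80), POLA2 (0.49), LIG1 (0.95), CHAF1A (0.98), DNMT1 (0.85) and E2F1 (0.90), which all still passed. It was smaller too for the 6 that no longer passed: POLD1 (0.11), RFC2 (0.21), E2F2 (0.46), TK1 (-0.0099), DBF4 (0.0049) and RPA3 (-0.19). It was larger for CCNE2 (2.52), GINS1 (1.48), PRIM1 (1.62), POLA1 (1.02), POLD3 (0.91), RFC4 (0.74) and RFC5 (0.91).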

How the results depend on the processing

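The count of 42 members lower in U87 held between 41 and 46 in every alternative, and that of 30 members with a positive difference between the lines stayed within 1.5 times. In U251 the count of 23 was 14 with no filter on low counts and 12 to 30 when 1 library was left out. It was 31 with DESeq2, 32 on log2(FPKM + 1) and 32 with only the 6 libraries compared. With the replicate block and the GC offset together it was 19. Over all tested genes the 1431 calls in U251 became 2328 with DESeq2, 864 with no filter, 806 with the replicate block and the GC offset together, 2154 on log2(FPKM + 1), 2892 with only the 6 libraries compared, and 652 to 2582 with 1 library left out. The single riser in U87 (RFC1) gave way to 0 with total counts, no filter, the GC offset alone or with the block, each FPKM fit and the 6 libraries alone, and to 0 to 3 with 1 library left out. The 2 negative differences became 4 with DESeq2, 1 with no filter, 0 with the GC offset alone or with the block, and 1 to 5 with 1 library left out. The 8478 differences called over all genes became 5084 with the GC offset and 4306 with the block added. The alternatives are refits under other settings, and the cause of these shifts was not tested.

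The labels do not say whether replicate numbers pair the samples, and they were not used so in the main fit. Deviations of same-numbered libraries correlated at 0.041, 0.00015 and 0.038 in U251 and at 0.053, 0.050 and -0.0086 in U87. Those of differently numbered libraries ran from -0.056 to 0.019 in U251 and from -0.085 to 0.044 in U87. With 3 libraries per group these values cannot decide whether the samples were paired. With the replicate block 21 members fell in U251 and 42 in U87, and 1169 and 9724 genes were called in all.

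The values below changed sign in at least 1 alternative fit, and not all of them were near 0. The main fit called the rise of RFC1 in U87 (0.21) and the differences for TK1 (1.53) and DBF4 (-0.75). With the GC offset RFC1, DBF4 and ORC2 were called lower in U87 (adjusted p = 0.0015, 0.021 and 0.0017). The differences for TK1 and DBF4 were not called with it. In U251 RFC1 was at 0.011 with no filter and 0.088 with the GC offset, with and without the block. DUT was at -0.015 with total counts, -0.016 on log2(FPKM + 1) with or without the filter and -0.018 on log2(FPKM + 0.1), and ran from -0.19 to 0.24 with 1 library left out. RRM2 was at 0.018 with no filter and 0.045 with the GC offset, and ran from -0.47 to 0.27. POLD2 was at 0.017 with no filter and ran from -0.11 to 0.088. In U87 the GC offset gave -0.31 for RFC1 (-0.31 with the block), -0.38 for DBF4 (-0.38), -0.43 for ORC2 (-0.43), -0.0052 for ORC6 and -0.15 for RPA3 (-0.15). ORC6 ran from -0.12 to 0.27 with 1 library left out. RPA3 was at -0.0027 with total counts, -0.0056 on log2(FPKM + 1) with or without the filter and -0.0069 on log2(FPKM + 0.1), and ran from -0.013 to 0.17. The difference between the lines was -0.0099 for TK1 (-0.010 with the block) and 0.0049 for DBF4 (0.011) with the GC offset. Depth limits E2F7 in U87 (3 to 7 counts per library).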
